A study of Mus musculus with 6 samples.

Results

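Regulators of G protein signalling (RGS proteins) were followed as 10 genes of the deposited count table: Rgs1, Rgs2, Rgs4, Rgs5, Rgs7, Rgs8, Rgs10, Rgs14, Rgs16 and Rgs17. They were chosen by gene symbol out of 37411 gene rows, 21 of which carry a numbered Rgs symbol, and all 10 were found. The RNA came from primary hippocampal neurons of CD-1 IGS mice, an outbred strain, cultured from P0 pups and harvested at 16 days in vitro. One group of 3 libraries (1, 2 and 3) received DMSO and the other group of 3 (4, 5 and 6) received 50 µM forskolin, each for 30 min. Forskolin activates adenylyl cyclase, so the comparison asks which RGS transcripts differ soon after cyclic AMP (cAMP) rises. The labels give no batch and do not say whether the libraries came from separate cultures or litters or how many pups were pooled, so the p-values measure only the spread between these libraries, which may be technical.

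RGS proteins bind the active, GTP-loaded alpha subunit of heterotrimeric G proteins and speed up its GTP hydrolysis, which ends the signal of the receptor and of the released beta-gamma dimer. The family is divided by domain structure: the small R4 proteins (here Rgs1, Rgs2, Rgs4, Rgs5, Rgs8 and Rgs16) consist of little more than the RGS domain, the R7 proteins (Rgs7) pair with the atypical beta subunit Gnb5, the R12 group includes Rgs10 and Rgs14, and the RZ group includes Rgs17. In the hippocampus they set how long receptors for GABA, acetylcholine, glutamate, adenosine and other transmitters act through Gi, Go and Gq. Rgs2 is also known as an immediate early gene of neurons.

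Promoter sequences are shown for Rgs2, Rgs4 and Rgs16 because the first of these genes was higher in every forskolin library and the other two were not. Each is the stretch of 250 bases before the gene's RefSeq start in GRCm38.p6, on the strand of the gene. Capitals mark the 5-base core of the cAMP response element (CRE), TGACG or its reverse complement CGTCA. The windows are chr1:144004150-144004399 (minus strand) for Rgs2, chr1:169747643-169747892 (minus strand) for Rgs4 and chr1:153740103-153740352 (plus strand) for Rgs16.
Rgs2: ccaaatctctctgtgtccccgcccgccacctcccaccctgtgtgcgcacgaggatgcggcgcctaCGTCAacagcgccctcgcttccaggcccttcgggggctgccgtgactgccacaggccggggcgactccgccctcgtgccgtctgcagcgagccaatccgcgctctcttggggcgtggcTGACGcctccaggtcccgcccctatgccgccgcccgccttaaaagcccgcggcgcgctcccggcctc
Rgs4: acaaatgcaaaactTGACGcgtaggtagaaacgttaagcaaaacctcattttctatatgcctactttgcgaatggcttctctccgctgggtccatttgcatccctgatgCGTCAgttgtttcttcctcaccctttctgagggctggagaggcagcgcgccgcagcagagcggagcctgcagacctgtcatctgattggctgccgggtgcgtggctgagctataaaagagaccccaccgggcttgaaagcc
Rgs16: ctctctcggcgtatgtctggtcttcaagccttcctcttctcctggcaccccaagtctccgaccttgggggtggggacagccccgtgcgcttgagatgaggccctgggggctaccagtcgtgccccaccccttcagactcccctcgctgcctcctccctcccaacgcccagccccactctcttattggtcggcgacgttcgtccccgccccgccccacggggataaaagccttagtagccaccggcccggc

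The Rgs2 window held 2 CRE cores, which began 185 and 67 bases before the start, and the Rgs4 window also held 2, which began 236 and 141 bases before it. The Rgs16 window held 0. Of the 10 members, 8 matched the RefSeq promoter table, with 10 windows in all since Rgs8 has 3 starts. A core was found in 3 of these 10 windows (Rgs2, Rgs4 and 1 window of Rgs8), beside 17.8% of the 32851 windows of the same length in the table, and at least 2 cores in 2 of 10, beside 3.90%. The full palindrome TGACGTCA, which contains the core on both strands and so counts as 2, was in 0 of the 10 windows and in 1.55% of all. The AP-1 motif TGACTCA (or TGAGTCA on the other strand), which does not contain the core, was in 1 window, that of Rgs17, and in 4.46% of all. Letters in these windows are a description and say nothing about which factor binds.

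In the GENCODE annotation of GRCm38, the build named in the submitters' processing notes, 7 of the 10 genes are on chromosome 1, some of them in close pairs. Rgs2 (chr1:143999338-144004161, minus strand) and Rgs1 (chr1:144242296-144249242, minus strand) belong to a run of R4 genes in which only Rgs13 lies between them, Rgs13 134 kb from Rgs2 and 64.9 kb from Rgs1. Rgs8 (chr1:153653025-153700323, plus strand) and Rgs16 (chr1:153740349-153745468, plus strand) are 40.0 kb apart. Rgs5 (chr1:169655501-169695813, plus strand) and Rgs4 (chr1:169741477-169747642, minus strand) are 45.7 kb apart. Rgs7 (chr1:175059087-175492500, minus strand) is the last on that chromosome. Rgs10 is on chromosome 7 (chr7:128373621-128418758, minus strand), Rgs14 on chromosome 13 (chr13:55369732-55384687, plus strand) and Rgs17 on chromosome 10 (chr10:5825663-5922400, minus strand). All 10 are annotated as protein-coding.

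Library totals ranged from 28342764 to 35304310 counts in the DMSO group and from 34139191 to 47548379 in the forskolin group. Forskolin libraries 4 and 5 stood apart from library 6 in their markers of other cells: 12 microglial markers summed to 249 and 411 CPM (counts scaled to library size) in libraries 4 and 5, to 25.8 CPM in library 6 and to between 23.5 and 36.1 CPM in the DMSO libraries, with none of the 12 at 0 counts in any library. The 12 neuron markers were all above 1 CPM in every library, and summed to between 4890 and 6203 CPM with DMSO, and to 3616, 3856 and 5838 CPM in libraries 4, 5 and 6; 1 of the 12, Rbfox3, fell by edgeR (log2 fold change -0.87, adjusted p = 0.0392). The cultures also held glial transcripts: 10 astrocyte markers summed to between 7069 and 8673 CPM over all 6 libraries. Mitochondrial ribosomal RNA took 14.0 to 23.7% of the counts with DMSO and 26.9 to 33.3% with forskolin; the part of this difference, or of the cell markers, in the results on all genes was not tested. Counts in bulk RNA cannot tell fewer cells of a type from less RNA per cell. Results on the members that rest on libraries 4 and 5 or on library 6 are given below with and without them.

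Of the 10 RGS genes, only Rgs2 passed the test across all genes: it rose about 3-fold with forskolin. The filter on low counts left Rgs1 out of this test because too few libraries held counts of it. The other 8 genes (Rgs4, Rgs5, Rgs7, Rgs8, Rgs10, Rgs14, Rgs16 and Rgs17) did not pass. The edgeR quasi-likelihood test on 6 libraries called 1 of 9 tested members (adjusted p under 0.05, Benjamini-Hochberg over 16233 genes), where it called 1.51% of all tested genes. That call was an increase, and 0.172% of tested genes were called higher. Of the members 0 were called lower, against 1.34% of tested genes. At an unadjusted p under 0.05 there were 2 members, Rgs2 and Rgs14, which is near the share of all tested genes (22.3%, or 3619 of 16233). The median log2 fold change of the 9 members was -0.10, and that of all tested genes was 0.02. Groups that did not overlap in CPM were seen for 2 of the 9, Rgs2 upward and Rgs14 downward, where 26.5% of tested genes did not overlap (10.3% upward and 16.2% downward). Without library 6, edgeR called 5 of these 9 members, Rgs2 higher and Rgs4, Rgs7, Rgs8 and Rgs14 lower, in a fit that called 33.6% of all tested genes.

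**Figure D1:**
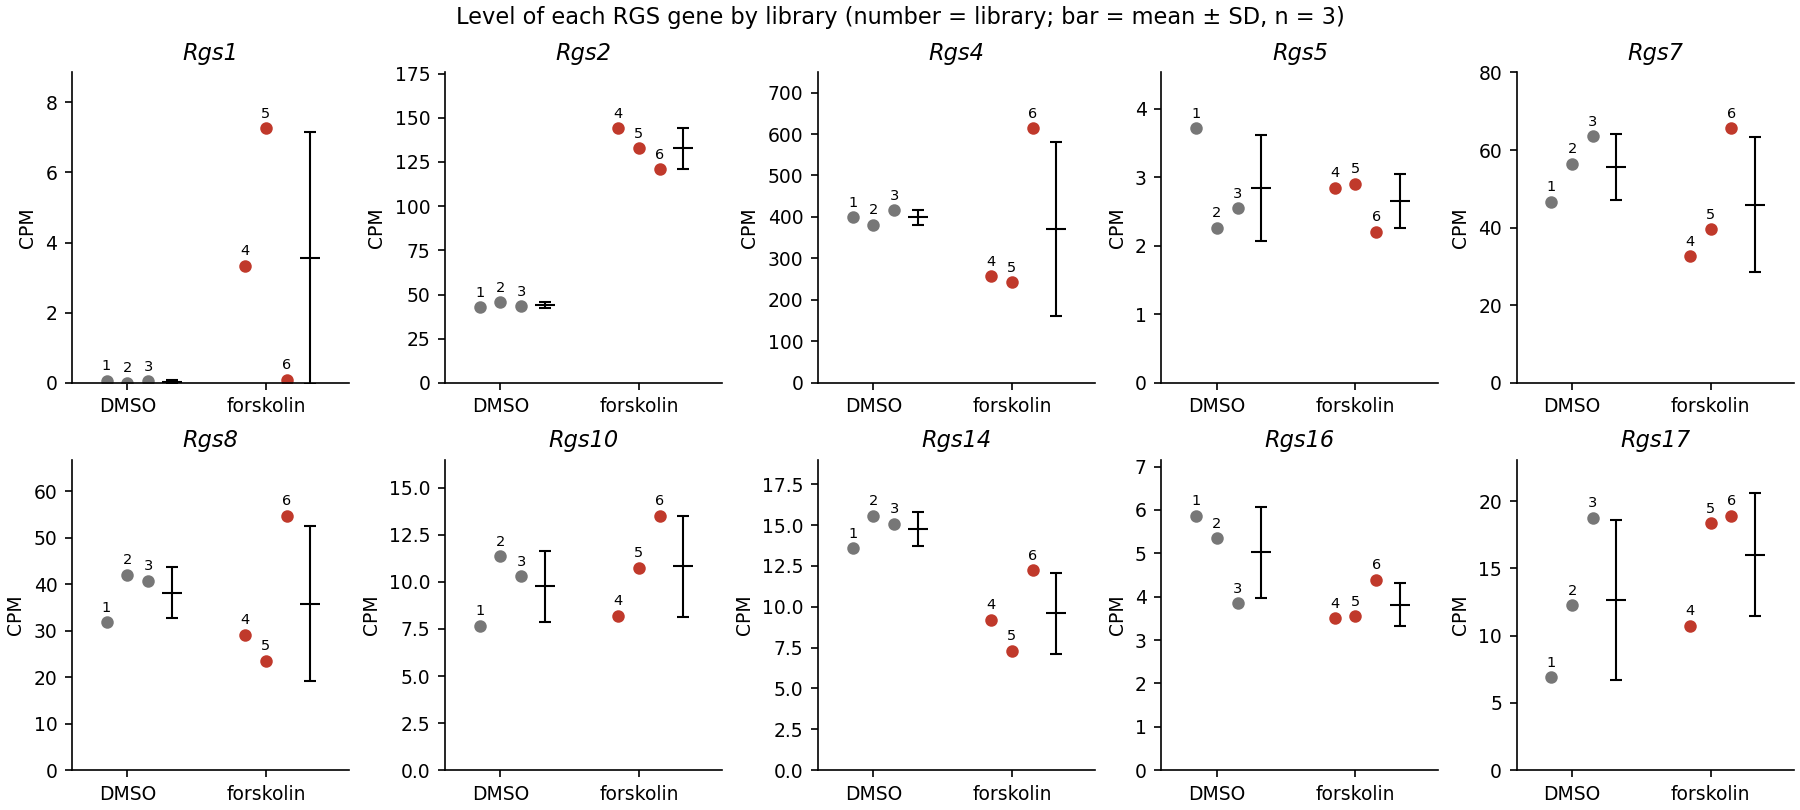
Level of each of the 10 RGS genes in CPM (vertical axis, linear, from 0) in the 3 DMSO libraries (grey) and the 3 forskolin libraries (red), numbered by library, with the mean ± SD of each group as a black bar (for Rgs1 the lower end of the forskolin bar is cut at 0). Rgs2 lies between 121 and 144 CPM in the forskolin libraries and between 42.7 and 45.8 CPM in the DMSO libraries, while Rgs4, Rgs7 and Rgs8 are highest in library 6.

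Rgs2, an R4 protein that acts mainly on Gq, stood at 42.7, 45.8 and 43.4 CPM after DMSO (libraries 1 to 3) and at 144, 133 and 121 CPM after forskolin (libraries 4 to 6). Every forskolin library lay far above every DMSO library, and the libraries of each group lay close together. In raw counts these were 1367, 1396 and 1547 against 6782, 4519 and 4053, so counting error was small. The group means were 44.0 ± 1.64 and 133 ± 11.5 CPM (SD, n = 3 each), a ratio of 3.02. The log2 fold change was 1.59 ± 0.11 (SE), with an edgeR adjusted p of 0.0188. By p-value Rgs2 stood at rank 2 of 16233 tested genes, and counted down from the highest log2 fold change at rank 401.

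The size of the Rgs2 change held with and without the libraries that stood apart. It was 1.64 on the log2 scale without library 6 (edgeR adjusted p = 0.00176) and 1.499 without libraries 4 and 5 together (adjusted p = 0.0228), where the lone forskolin library was assumed to vary as the others do. Leaving out any one of libraries 1 to 5 gave values from 1.53 to 1.64 but adjusted p from 0.0968 to 0.242, in fits where edgeR called 0 genes of all those tested and 1945 to 3216 had an unadjusted p under 0.05. With each library's trend on GC content removed the value was 1.37 (adjusted p = 0.0639), again in a fit with 0 genes called and 1947 at an unadjusted p under 0.05. DESeq2 on all 6 libraries gave 1.61 (adjusted p = 2.99e-35). In the authors' deposited table Rgs2 is the only one of the 10 members among 132 genes, with a log2 fold change of 1.57 ± 0.193 (SE); the smallest log2 fold change listed there is 1.501.

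Within its groups Rgs2 varied less than most early response genes. Library 6 held 0.874 times the mean of libraries 4 and 5 for Rgs2, whereas the ratio was 0.517 for Fos, 0.612 for Dusp1, 0.448 for Nr4a1 and 0.409 for Sik1. Over a list of 12 early response genes the ratio ranged from 0.139 (Junb) to 1.15 (Arc), and it was under that of Rgs2 in 10 of 12. The same contrast appeared in the controls. DMSO library 1 held 0.957 times the mean of libraries 2 and 3 for Rgs2, but 1.78 times for Fos, 3.15 times for Fosb and 4.19 times for Npas4, and over 1.5 times in 8 of the 12 genes. In the forskolin group the coefficient of variation of Rgs2 was 8.68% and that of Fos 33.6%. No test was made of these differences.

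The genes with the pattern most like that of Rgs2 were Rpl22l1, 1700023H06Rik and Tinf2. Likeness was the root-mean-square difference in log2 ratio to the DMSO mean over the 6 libraries, among 11306 other genes (11307 for Rgs16) with a mean of at least 5 CPM, and it was 0.164, 0.205 and 0.314 for these 3. The log2 fold change of Rpl22l1, a ribosomal protein paralogue, was 1.79 (edgeR adjusted p = 0.0204). The noncoding gene 1700023H06Rik had 1.70 (edgeR adjusted p = 0.0371), and Tinf2, which encodes a telomere-binding protein, had 1.51 (adjusted p = 0.0655). The likeness covers 6 libraries of 2 groups and is a description.

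Rgs4, which acts on Gi, Go and Gq and is abundant in forebrain neurons, was the most abundant member in both groups. Its level was 399, 381 and 416 CPM with DMSO, and 257, 243 and 614 CPM in libraries 4, 5 and 6. The DMSO libraries were alike, while libraries 4 and 5 lay below all of them and library 6 above all of them, so that the groups overlapped. The log2 fold change was -0.10 ± 0.36 (SE; edgeR adjusted p = 0.884). Without library 6 it was -0.69 ± 0.09 (adjusted p = 0.00466), and without libraries 4 and 5 it was 0.66 ± 0.12 (adjusted p = 0.0842), so that its direction is set by which forskolin libraries are kept. The summed neuron markers were also lower in libraries 4 and 5 than in library 6, but library 6 was not above DMSO library 3 in them; their part in the Rgs4 values was not tested. The patterns most like that of Rgs4 were those of Faxc, Gprasp2 and Slc26a4 (root-mean-square log2 differences of 0.105, 0.129 and 0.132), none of which passed the edgeR test (adjusted p of 0.771, 0.617 and 0.820).

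**Figure D2:**
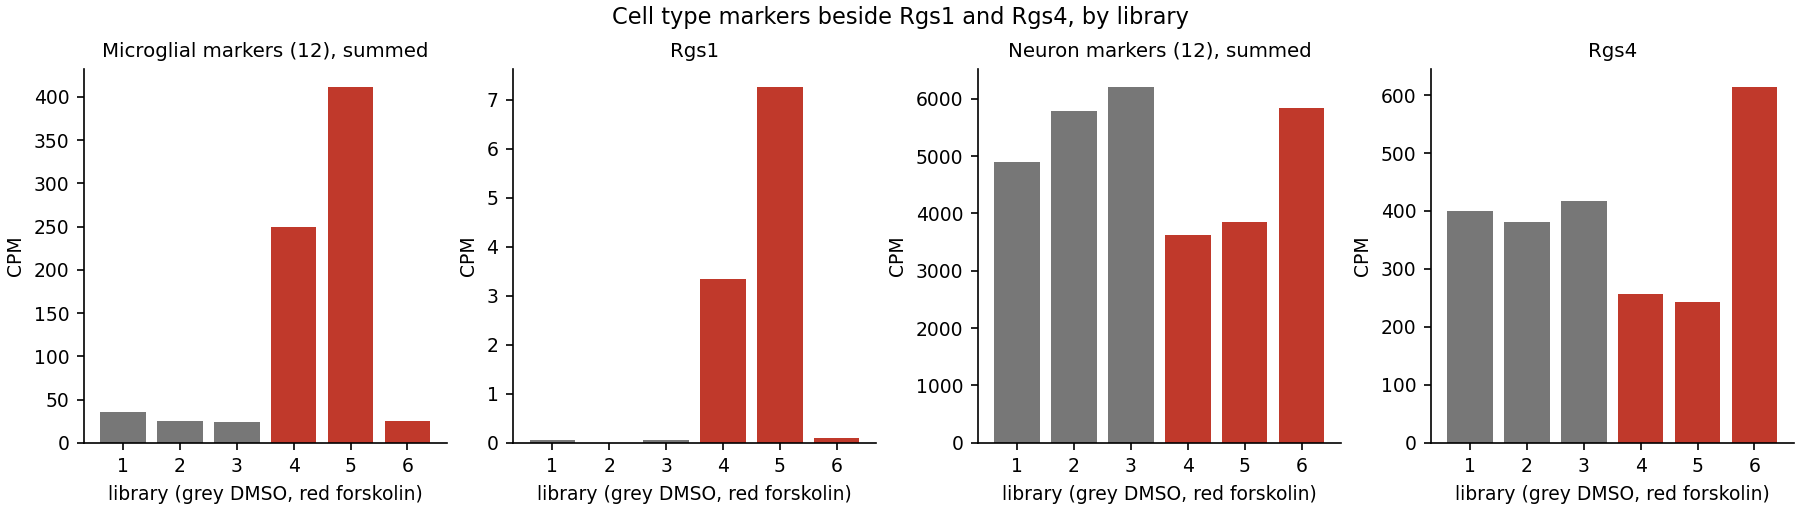
Summed CPM of 12 microglial markers, CPM of Rgs1, summed CPM of 12 neuron markers and CPM of Rgs4 (vertical axes, each on its own linear scale from 0), 1 bar per library in order 1 to 6, grey for DMSO and red for forskolin. Microglial markers and Rgs1 are high in libraries 4 and 5 alone, at 249 and 411 CPM and at 3.33 and 7.26 CPM, while Rgs4 is lowest in those libraries and highest in library 6, at 614 CPM.

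Rgs8, another R4 protein, which is best known from Purkinje cells, had a like order of libraries. It had 31.9, 42.0 and 40.7 CPM with DMSO and 29.2, 23.6 and 54.8 CPM in libraries 4, 5 and 6. Libraries 4 and 5 were the lowest of the 6 and library 6 the highest (log2 fold change -0.09 ± 0.31 (SE), edgeR adjusted p = 0.880). The value without library 6 was -0.55 (adjusted p = 0.0424), and without libraries 4 and 5 it was 0.56 (adjusted p = 0.250).

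Rgs16, the chromosomal neighbour of Rgs8 and like it an R4 protein, had 5.87, 5.35 and 3.84 CPM with DMSO and 3.50, 3.56 and 4.39 CPM with forskolin. Library 6 lay above DMSO library 3, so the groups overlapped. Its log2 fold change was -0.40 ± 0.24 (SE; edgeR adjusted p = 0.358), and it did not pass in any of the 15 alternatives, where the lowest adjusted p was 0.0768. Rgs16 had -0.52 without library 6 and -0.16 without libraries 4 and 5. Its most similar patterns were those of Eif3f, a translation initiation factor subunit, Mrps24, a mitochondrial ribosomal protein, and Nudt18 (root-mean-square log2 differences of 0.0824, 0.0843 and 0.0957). None of these 3 passed the edgeR test (adjusted p of 0.294, 0.187 and 0.313).

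Rgs5, an R4 protein used as a marker of pericytes, was low and overlapped between groups, with 3.72, 2.26 and 2.55 CPM after DMSO and 2.85, 2.91 and 2.21 CPM after forskolin. Its log2 fold change was -0.10 ± 0.28 (SE; edgeR adjusted p = 0.853), with 9.2e-05 without library 6 and -0.33 without libraries 4 and 5 (adjusted p = 0.9998 and 0.691). Of 10 markers of mural cells (pericytes and smooth muscle), the pericyte markers Kcnj8 and Higd1b had between 0 and 4 counts in every library and Abcc9 between 1 and 9, while Pdgfrb had between 329 and 645, Vtn between 366 and 1395 and Notch3 between 429 and 827. The list summed to between 148 and 199 CPM with DMSO and between 102 and 138 CPM with forskolin (exact two-sided permutation test, p = 0.1, the smallest that 3 against 3 libraries can give). Cspg4, which oligodendrocyte precursors also express, made up 106, 109 and 99.0 CPM of it with DMSO and 55.1, 81.1 and 62.7 CPM with forskolin. The part of mural cells in the Rgs5 values was not tested.

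Rgs1, the R4 member of lymphocytes and activated microglia, was close to absent from 4 of the 6 libraries. Its counts were 2, 0 and 2 with DMSO, and 157, 247 and 3 in libraries 4, 5 and 6. Library 6 lay at the level of the controls, where 3 counts correspond to 0.0896 CPM. Over the groups the ratio of counts per scaled library size was 87.1 (exact 95% interval 33.8 to 321, which covers counting error only and not the spread between libraries), and all but 3 of the 407 forskolin counts came from libraries 4 and 5. These are the libraries in which microglial markers such as C1qa were highest: C1qa had 58, 34 and 27 counts with DMSO and 1881, 2158 and 34 counts in libraries 4, 5 and 6. The part of microglial RNA in the Rgs1 values was not tested. With all 6 libraries and no filter on low counts, Rgs1 did not pass: its edgeR log2 fold change was 6.33 ± 1.37 (SE; adjusted p = 0.0720). The fold change was 6.37 with a mean count of at least 50 and 5.83 to 6.75 without 1 DMSO library. Its size depends on the prior count because the DMSO group is at or under 3 counts per library. With a mean count of at least 50, Rgs1 passed the filter only through libraries 4 and 5, where it was high. The same held without 1 DMSO library and without library 6. Those fits are no test of it.

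The R7 protein Rgs7, which with Gnb5 and the membrane anchor Rgs7bp speeds the closing of potassium channels opened by beta-gamma dimers, had 46.7, 56.4 and 63.5 CPM with DMSO and 32.7, 39.6 and 65.6 CPM in libraries 4, 5 and 6. Libraries 4 and 5 were again the lowest of the 6 and library 6 the highest. The log2 fold change was -0.27 ± 0.27 (SE; edgeR adjusted p = 0.564), and it was -0.64 without library 6 (adjusted p = 0.0260) and 0.28 without libraries 4 and 5 (adjusted p = 0.506). With the GC trend removed and all 6 libraries kept it was -0.82 (adjusted p = 0.415). Its partners did not pass: the log2 fold change of Gnb5 was -0.45 (edgeR adjusted p = 0.145) with all forskolin libraries below all DMSO libraries, and Rgs7bp had 0.17 (adjusted p = 0.712).

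Rgs14, an R12 protein known for its high level in CA2 pyramidal cells, where it limits synaptic plasticity, was the only member whose forskolin libraries all lay below its DMSO libraries. It had 13.6, 15.6 and 15.1 CPM with DMSO and 9.22, 7.32 and 12.2 CPM with forskolin, with means of 14.8 ± 1.04 and 9.59 ± 2.48 CPM (SD, n = 3 each). The groups did not overlap, but the difference did not pass the threshold (log2 fold change -0.62 ± 0.21 (SE), edgeR adjusted p = 0.171). It was -0.85 without library 6 (adjusted p = 0.0111) and -0.23 without libraries 4 and 5 (adjusted p = 0.558). The 6 markers of CA2 cells summed to between 206 and 240 CPM with DMSO and between 144 and 187 CPM with forskolin (exact two-sided permutation test, p = 0.1, the smallest possible). Of these 6 genes 0 passed the edgeR test, and 2 had an unadjusted p under 0.05 (22.3% of all tested genes did). These were Necab2 at a log2 fold change of -0.60 and Pcp4 at 0.46, and the median of the 6 was 0.05. Necab2 made up most of the sum and lay lower in every forskolin library, whereas Pcp4 and Map3k15 lay higher in every one; the part of CA2 cells in the Rgs14 values was not tested.

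Rgs10, the other R12 member and one of the smallest RGS proteins, is found in microglia as well as neurons. It had 7.68, 11.4 and 10.3 CPM with DMSO and 8.20, 10.8 and 13.5 CPM in libraries 4, 5 and 6. The groups overlapped, and libraries 4 and 5, which were high in microglial markers, had 8.20 and 10.8 CPM of Rgs10; the part of microglial RNA in these values was not tested. The log2 fold change was 0.15 ± 0.24 (SE; edgeR adjusted p = 0.745), and it was -0.063 without library 6 (adjusted p = 0.841) and 0.51 without libraries 4 and 5 (adjusted p = 0.408). The RZ member Rgs17, which prefers the Gz alpha subunit, had 6.90, 12.3 and 18.8 CPM with DMSO and 10.7, 18.4 and 18.9 CPM with forskolin. All forskolin libraries but the highest lay within the range of the controls (log2 fold change 0.34 ± 0.39 (SE), edgeR adjusted p = 0.625). The direction of Rgs17 turned with the GC trend removed (-0.18). Leaving out each library in turn gave values from 0.074 (without DMSO library 1) to 0.73 (without DMSO library 3). The value was 0.18 without library 6 and 0.62 without libraries 4 and 5.

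**Figure D3:**
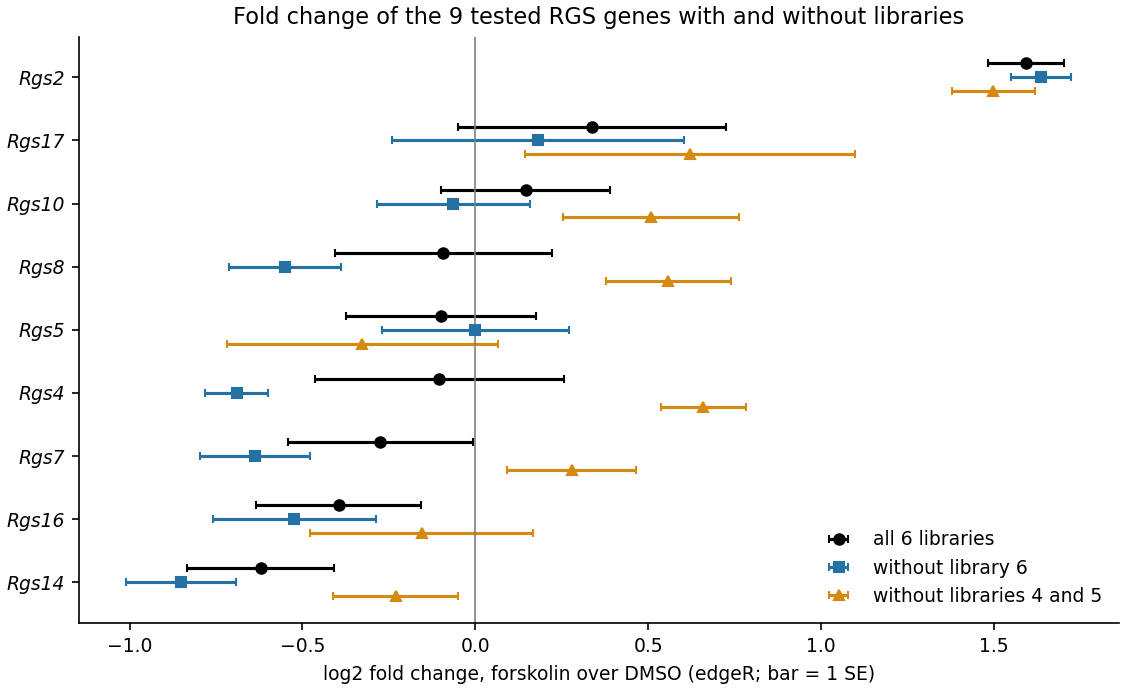
edgeR log2 fold change of forskolin over DMSO (horizontal axis; the bar is 1 SE) for the 9 tested RGS genes, from all 6 libraries (black circles), without library 6 (blue squares) and without libraries 4 and 5 (orange triangles, 1 forskolin library left). Rgs2 stays between 1.499 and 1.64 in all 3 fits, while Rgs4, Rgs7 and Rgs8 lie below 0 without library 6 and above 0 without libraries 4 and 5.

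Levels can be compared between genes only per length, so CPM was divided by the length of each gene's longest GENCODE transcript in kilobases; the lengths the authors' quantification used are not given in the sources used here. On this scale Rgs4 was first in the DMSO group at 136 ± 6.01 CPM per kb (SD, n = 3), followed by Rgs7 at 15.1 ± 2.30 and Rgs2 at 14.6 ± 0.541, which overlapped. Rgs10 came next at 11.1 ± 2.15, below every library of Rgs2 but overlapping with Rgs7. Rgs14 at 6.20 ± 0.438 and Rgs8 at 4.51 ± 0.652 CPM per kb followed, each separate from its neighbours. Then came Rgs16 (2.15 ± 0.450), Rgs17 (1.54 ± 0.725) and Rgs5 (0.694 ± 0.188), with overlap between Rgs16 and Rgs17 and between Rgs17 and Rgs5, and Rgs1 was last at 0.00676 ± 0.00588 CPM per kb. With forskolin Rgs2 stood alone in second place at 43.9 ± 3.81 CPM per kb, above every library of Rgs7 (12.5 ± 4.72) and below every library of Rgs4 (126 ± 71.5).

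As a share of the counts on all 21 Rgs genes, Rgs2 went from 6.28, 6.59 and 5.91% in the DMSO libraries to 22.8, 21.7 and 11.9% in libraries 4, 5 and 6. Rgs4 held 58.7, 54.8 and 56.7% and then 40.7, 39.8 and 60.3%. The share of Rgs2 was higher in every forskolin library, and it was lowest among them in library 6, where Rgs4 took more. These shares are of counts, not of molecules, since genes differ in length.

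**Figure D4:**
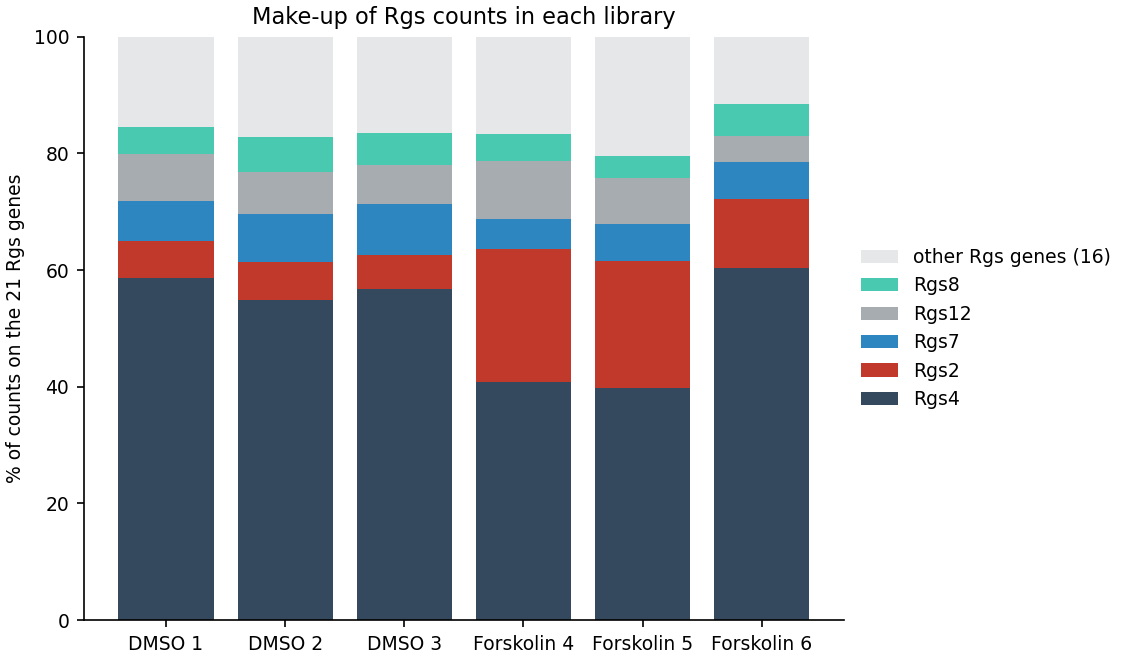
Share of the counts on the 21 Rgs genes (vertical axis, in %) taken by Rgs4, Rgs2, Rgs7, Rgs12, Rgs8 and the other 16 genes together, 1 stacked bar per library. Rgs2 (red) takes between 5.91 and 6.59% in the DMSO libraries and between 11.9 and 22.8% in the forskolin libraries.

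The other 11 canonical Rgs genes did not pass the test. Of 9 tested, 0 were called by edgeR and 1 (Rgs11, which pairs with Gnb5) had an unadjusted p under 0.05, where 22.3% of all tested genes did. The median log2 fold change was 0.02. Rgs12 and Rgs19 had the highest levels, with log2 fold changes of 0.02 (edgeR adjusted p = 0.957) and -0.33 (adjusted p = 0.283). Among the genes next to Rgs2 and Rgs1 on chromosome 1, Rgs13 had 16, 26 and 15 counts with DMSO and 37, 40 and 16 with forskolin (log2 fold change 0.46, edgeR adjusted p = 0.559). Rgs18 had 0 counts in 4 libraries and 1 and 3 counts in libraries 4 and 5, and Rgs21 is listed at 0 throughout.

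Among the alpha subunits of heterotrimeric G proteins, 2 of 12 tested fell and none rose by edgeR, where 1.34% of all tested genes fell and 0.172% rose. Gnas, which encodes the stimulatory subunit that activates adenylyl cyclase and is not a usual substrate of these RGS proteins, went from 26.2, 28.9 and 23.9 CPM to 8.47, 8.84 and 11.4 CPM (log2 fold change -1.46 ± 0.17 (SE), adjusted p = 0.0276). The value is uncertain because the imprinted Gnas locus has overlapping transcripts that counting may have divided. Gnaz, the target of Rgs17, went from 83.7, 95.9 and 93.5 CPM to 56.7, 59.4 and 54.6 CPM (log2 fold change -0.68 ± 0.10 (SE), edgeR adjusted p = 0.0402). Removal of the GC trend brought them to -1.09 and -0.49 (edgeR adjusted p = 0.191 and 0.242), and without libraries 4 and 5 they were -1.17 and -0.70 (adjusted p = 0.0627 and 0.106). The median over the 12 alpha subunits was -0.17.

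Beta and gamma subunits had 0 of 12 called by edgeR and 3 at an unadjusted p under 0.05, near the 22.3% of all tested genes. Their median log2 fold change was -0.25. Gnb1 and Gnb2, the most abundant in the DMSO group, had -0.24 and -0.47 (edgeR adjusted p = 0.509 and 0.163). Among 8 tested partners of RGS proteins and G proteins, 1 passed and it was lower (1.34% of all tested genes were): Ppp1r9b, which encodes the dendritic spine scaffold spinophilin, an RGS-binding protein, went from 530, 564 and 529 CPM to 289, 297 and 328 CPM (log2 fold change -0.83 ± 0.12 (SE), edgeR adjusted p = 0.0381). Its longest transcript is 62.3% GC, and with the GC trend removed its log2 fold change was -0.14 (adjusted p = 0.736), while without libraries 4 and 5 it was -0.68 (adjusted p = 0.0880).

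Receptors that signal through Gi or Go had 0 of 28 genes called by edgeR, with 10 at an unadjusted p under 0.05 (22.3% of all tested genes were) and a median log2 fold change of -0.32. The GABA-B receptor subunits Gabbr1 and Gabbr2 were the most abundant in the DMSO group. Their log2 fold changes were -0.46 (edgeR adjusted p = 0.318) and -0.64 (adjusted p = 0.133). In 10 of the 28 all forskolin libraries lay below all DMSO libraries (16.2% of all tested genes did so, and 5 of the 12 neuron markers), and in 2 all lay above (10.3% of all tested genes); the latter were Npy2r and the microglial Cx3cr1. Receptors for Gq had 0 of 11 tested genes called by edgeR and 2 at an unadjusted p under 0.05 (22.3% of all tested genes were). Their median was -0.36. Ednrb and Chrm1, the most abundant with DMSO, had 0.55 and -0.60, and neither passed. Grm5 is listed at 0 counts in every library and so went untested; the reason for its lack of counts is not known. GIRK potassium channels, which beta-gamma dimers open, had 0 of 3 called by edgeR and 1 at an unadjusted p under 0.05 (22.3% of all tested genes were). Their median was -0.44. Kcnj3 had -0.03 (edgeR adjusted p = 0.941) and Kcnj9 -0.74 (adjusted p = 0.192). For comparison, 3 of the 12 early response genes rose by edgeR (Fos, Fosb and Dusp1), as did 0.172% of all tested genes, and none fell, with a median of 1.44. Fos went from 186, 109 and 101 CPM to 831, 902 and 448 CPM, 2.46 on the log2 scale (edgeR adjusted p = 0.0375), and that of Fosb was 3.38 (adjusted p = 0.0402). Dusp1, a MAP kinase phosphatase, had 37.9, 22.9 and 22.5 CPM with DMSO and 180, 185 and 112 CPM with forskolin (log2 fold change 2.52, edgeR adjusted p = 0.0276), a larger fold than that of Rgs2 with a wider spread in both groups. Without libraries 4 and 5 none of the 3 passed: the edgeR values were 1.80 for Fos (adjusted p = 0.0804), 2.97 for Fosb (adjusted p = 0.104) and 2.05 for Dusp1 (adjusted p = 0.0521), and that of Fos was 2.70 without library 6 (adjusted p = 0.00309). With the GC trend removed none passed either, at 2.56 for Fos and 3.62 for Fosb (edgeR adjusted p = 0.161 for each) and 2.68 for Dusp1 (adjusted p = 0.0729).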

How the data were processed

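The submitters' processing notes name Salmon, DESeq and the build GRCm38, with no versions; the annotation and strand setting are not given in the sources used here. The authors deposited estimated counts per gene symbol, already whole numbers. A separate table of the authors' own comparison holds, per the file headers, a signal (mean of normalised counts), a log2 fold change with its SE, a test score and p-values; its Rgs2 row, its number of genes and its smallest log2 fold change were used.

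The labels place each library in its group and share no replicate numbers between groups. Genes were kept with filterByExpr (minimum count 10, minimum total 15), scaled by TMM, and fitted with edgeR 4.0.16 (R 4.3.3; glmQLFit, glmQLFTest) over all 6 libraries, after a test on simulated data. P-values were Benjamini-Hochberg adjusted over all tested genes (threshold 0.05). The SE is the absolute log2 fold change over the square root of F. CPM used TMM-scaled sizes; log2 ratios used a prior count of 2. DESeq2 1.42.0 and limma 3.58.1 served as alternatives. GC content and length came from each gene's longest GENCODE M21 transcript and were known for 97.1% of tested genes. Intervals cover counting error only.

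The members, gene lists and alternatives were chosen with earlier results of these data known. All 10 members are described. The 3 nearest patterns were named for Rgs2, Rgs4 and Rgs16. Rgs1, also intended, was left out by the filter on low counts. From each list the genes past the threshold were named, otherwise the 2 most abundant with DMSO. Others (Rgs11, Rgs13, Rgs18, Rgs21, Gnb5, Rgs7bp, Npy2r, Cx3cr1, Grm5, further early response genes and single markers) were chosen after their values were seen.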

Additional observations from a re-analysis of the deposited data

How the results depend on the processing

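No paired analysis was possible because the labels number the libraries 1 to 6 across both groups and no number is shared. Rgs2 stayed positive in all 15 alternatives (1.37 to 1.64) and Rgs14 and Rgs16 stayed negative. The edgeR count of called members was 1, and 5 with library quality weights (limma), 0 with the GC trend removed (2 at an unadjusted p under 0.05), 0 to 6 when each library was left out in turn (6 without library 6, 0 otherwise) and 5 with the GC trend removed and library 6 left out. Both counts without library 6 include Rgs1, which passed the filter there only through the libraries where it was high. Over all genes the 245 calls became 1775 with DESeq2, 6795 with quality weights, 137 with RLE factors, 0 with the GC trend removed, 0 to 5698 when each library was left out, 5432 with both GC trend and library 6 removed, and 94 without libraries 4 and 5. For the other genes of the pathway, 6 calls became 19 with DESeq2, 65 with quality weights and 0 with the GC trend removed. Their number was 56 without library 6 and 53 with the GC trend also removed. It was 0 when any one of libraries 1 to 5 was left out, where 0 genes of all those tested were called. The cause of these shifts was not tested. The fits without library 6, and those without libraries 4 and 5, test fewer libraries; the fit without libraries 4 and 5 and the one combining the GC correction with the loss of library 6 were added after the data were seen.

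Signs turned in 16 of the members' alternative fits, none of them called. Leaving out each library in turn gave -0.69 to 0.16 for Rgs4, -0.23 to 0.16 for Rgs5, -0.55 to 0.17 for Rgs8 and -0.063 to 0.31 for Rgs10. Without libraries 4 and 5 the values were 0.66 for Rgs4, 0.28 for Rgs7 and 0.56 for Rgs8. Quality weights gave 0.12 for Rgs5 and -0.080 for Rgs10. With the GC trend removed Rgs17 had -0.18, and with library 6 also left out Rgs17 had -0.51 and Rgs10 -0.0037. Low counts limit Rgs1, Rgs5 and Rgs16.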

Other observations

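Markers of endothelium were low in all libraries. The 8 endothelial markers summed to between 14.3 and 37.1 CPM with DMSO and between 12.5 and 31.9 CPM with forskolin (exact two-sided permutation test, p = 1.0), and the ranges of both groups overlapped.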
